A study of Mus musculus with 18 samples.

Results

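The genes described here are 10 genes of the cartilage program, chosen by name: the SOX transcription factors *Sox9*, *Sox5* and *Sox6*, the matrix genes *Acan*, *Vcan*, *Hapln1*, *Comp*, *Matn2* and *Matn4*, and *Cytl1*, which encodes a secreted cytokine-like protein. They were chosen with earlier results of these data known, so the shares of members called below are not independent of that choice. All 10 had a row among the 24100 genes listed in both tables of counts. The RNA came from C3H/10T1/2, a mouse mesenchymal progenitor cell (MPC) line, kept in normal culture without differentiation cues. *Atrx* WT was an isogenic line that had received the empty Cas9 vector, and *Atrx* KO was represented by 2 lines, 1 clone made with the guide sg5 and 1 clone made with the guide sg6. Each line had 3 polyA-selected and 3 rRNA-depleted libraries, 18 in all, and the sources used here do not state whether those 3 came from separate cultures. P values therefore measure the spread between libraries of a single line, and the effect of *Atrx* loss cannot be told apart from whatever else distinguishes a clone from the WT line.

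ATRX is a chromatin remodeler that helps to deposit the histone variant H3.3 in heterochromatin. In the chondrocyte lineage, SOX9 is the factor needed to commit mesenchymal cells, and SOX5 and SOX6 act with it to switch on the genes of the cartilage matrix. That matrix is built on hyaluronan, to which the large proteoglycans aggrecan (*Acan*) and versican (*Vcan*) are held by link protein (*Hapln1*), while matrilins and cartilage oligomeric matrix protein (*Comp*) bridge collagen fibrils and proteoglycans. The comparison asks whether the WT line and the KO clones differ in the RNA of these genes before any inducing medium is added.

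*Matn4* was higher and *Cytl1* was lower than in WT in both clones and in both kinds of library, and *Hapln1* was lower in the sg5 clone in both kinds. A gene was called when its log2 fold change exceeded 1 in size with an adjusted *p* value below 0.05 in edgeR's quasi-likelihood test, adjusted over the whole table. By that rule 3 of 10 members were called in sg5 versus WT in polyA libraries (*Hapln1*, *Matn4* and *Cytl1*), where 10.1% of all genes tested were called. For sg6 versus WT, 2 of 10 were called (*Matn4* and *Cytl1*), against 11.2% of all genes. In rRNA-depleted libraries 9 members were tested, *Acan* being too low. There 5 of 9 were called for sg5 versus WT (*Sox9*, *Sox6*, *Hapln1*, *Matn4* and *Cytl1*), beside 7.35% of the genes and 3.06% of all features of that table, which also holds transposable element loci. The sg6 clone had 2 of 9 (*Matn4* and *Cytl1*), beside 5.75% of genes and 2.45% of features. *Matn4* and *Cytl1* were thus the members called in the same direction in both clones, in each kind of library, as were 7.66% of all genes tested in polyA and 3.98% in rRNA-depleted libraries. The median log2 fold change over the members was -0.04 in sg5 and -0.06 in sg6 in polyA data, beside -0.0024 and -0.0061 over all genes. In rRNA-depleted data it was 0.64 and 0.30 over the 9 members tested, beside 0.080 and 0.038 over all genes.

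**Figure D1:**
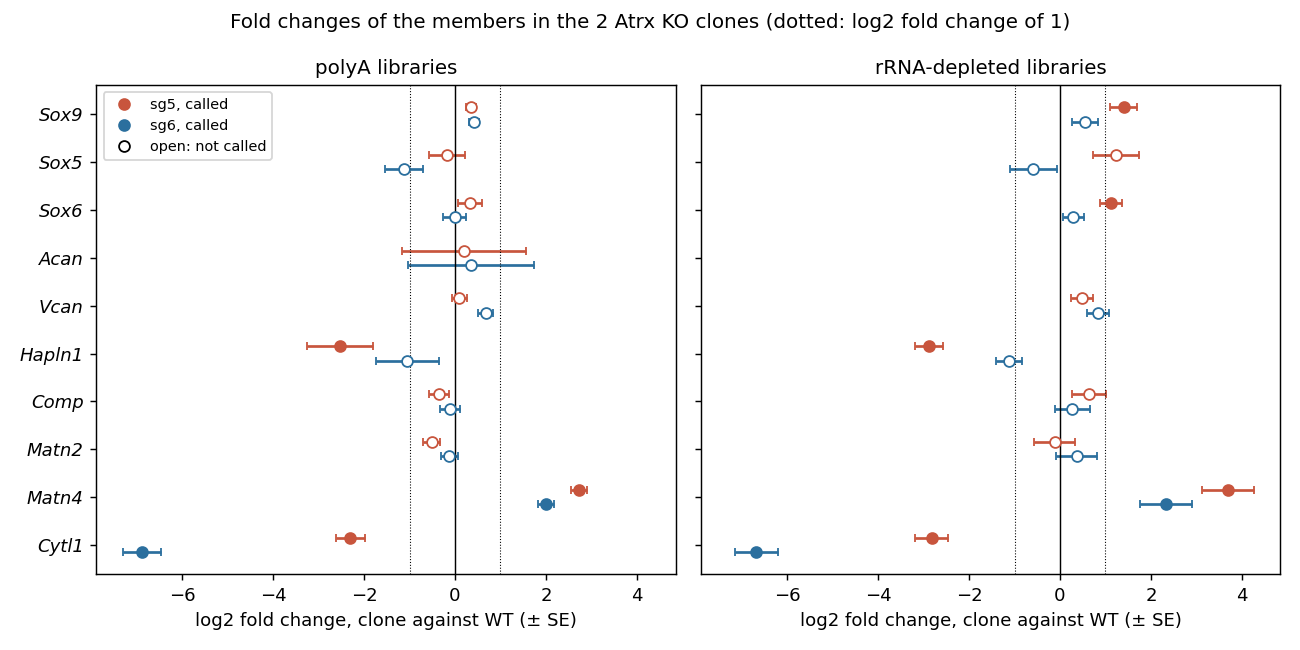
Log2 fold change of each member in the sg5 and sg6 clones against WT with its SE, in polyA (left) and rRNA-depleted libraries (right). Filled points were called and open points were not, and *Matn4* (right of 1) and *Cytl1* (left of -1) are filled for both clones in both panels.

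Several facts about the libraries bear on these values. Total counts ran from 27544833 to 80772108 in the WT polyA libraries, from 58918732 to 71896907 in sg6 and from 161036799 to 235346363 in sg5, so that the sg5 libraries were the deepest, while the rRNA-depleted totals lay between 20135336 and 33187136 in all 9 libraries. *Atrx* itself was 2.36-fold lower in sg5 and 2.30-fold lower in sg6 than in WT in polyA libraries, with 275.9, 297.3 and 327.6 CPM (normalized counts scaled to a common library total) in WT, 138, 114 and 129 in sg5 and 122, 129 and 141 in sg6. Among 10 markers of mesenchymal stromal cells, 9 exceeded 1 CPM in every library of both kinds. Of 10 chondrocyte markers, *Col2a1*, *Col9a1*, *Col11a2*, *Matn3* and *Cnmd* did so, and the summed level of the list ran from 687 to 1045 CPM in WT, from 749 to 1415 in sg5 and from 852 to 1919 in sg6 polyA libraries. *Col2a1* made up most of that sum, with means of 569.5, 806 and 1233 CPM in WT, sg5 and sg6, whereas *Col9a1* had means of 112, 62.6 and 33.2 and *Col11a2* of 25.6, 12.4 and 16.5. After rRNA depletion *Col9a1* had means of 162, 195 and 74.8 CPM, so its sg5 mean was above that of WT. The means of *Col2a1* (275.5, 603 and 558) and *Col11a2* (11.6, 5.80 and 6.57) differed from WT in the same directions as in polyA libraries. In polyA libraries the 6 endothelial markers summed to between 1.71 and 2.84 CPM in WT, 10.1 and 14.9 in sg5 and 9.32 and 12.03 in sg6. *Tek* made up most of the sums in the clones, with means of 0.962, 11.5 and 9.33 CPM, while *Pecam1* was at 0.340, 0.136 and 0.152 and *Cdh5* at 0.221, 0.199 and 0.188. The 8 immune markers summed to 14.4 to 21.8, 7.36 to 8.48 and 8.34 to 10.7, with *Adgre1* at 0 in every polyA library, and the 6 epithelial markers to 2.94 to 6.11, 0.840 to 1.63 and 0.325 to 0.723. Their part in the results was not tested, and in bulk RNA fewer cells of a type and less RNA per cell cannot be told apart.

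Levels of different genes were compared per kilobase of annotated exon. In WT polyA libraries the order was *Sox9* at 107 ± 1.40 CPM per kb (SD, n = 3), *Cytl1* at 50.8 ± 1.40, *Vcan* at 34.1 ± 7.44, *Matn2* at 11.7 ± 3.11, *Sox6* at 5.63 ± 0.844, *Comp* at 4.55 ± 1.49, *Hapln1* at 4.17 ± 0.936, *Matn4* at 1.58 ± 0.114, *Sox5* at 0.617 ± 0.0702 and *Acan* at 0.258 ± 0.113. *Sox6*, *Comp* and *Hapln1*, which follow each other in this order, lay within their spread. *Cytl1*, second in WT, was at 10.3 ± 3.73 CPM per kb in sg5 and at 0.418 ± 0.281 in sg6. *Matn4* was at 10.4 ± 2.70 in sg5 and 6.32 ± 0.371 in sg6, and it thereby stood above *Comp* in both clones.

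**Figure D2:**
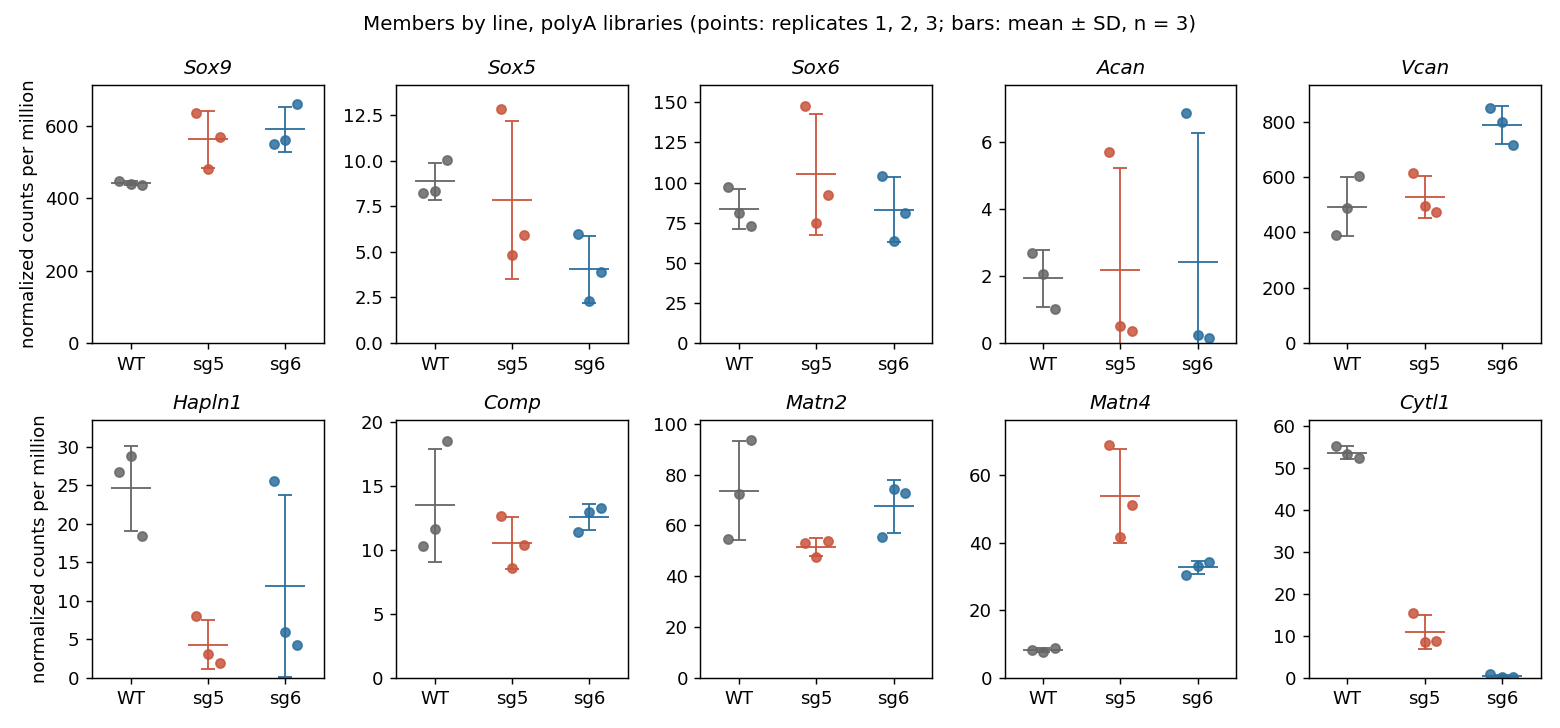
Normalized CPM of the 10 members in each polyA library, each panel with its own axis from 0, points for replicates 1, 2 and 3 of a line from left to right and bars for the mean and SD. WT and KO points are apart for *Matn4* and *Cytl1*, and replicate 1 is the highest library of each clone for *Acan* and *Hapln1*.

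*Sox9*, the factor that commits cells to the chondrocyte lineage (chr11:112782224-112787760, plus strand, GRCm38), was the most abundant of the SOX members. Its polyA level was 447, 439 and 436 CPM in the WT libraries, 636, 481 and 569 in sg5 and 549.7, 559.6 and 661 in sg6. Every KO library lay above every WT library. The differences were small, with log2 fold changes of 0.35 (SE 0.11, adjusted *p* = 0.0497) in sg5 and 0.42 (SE 0.11, adjusted *p* = 0.0221) in sg6, so that *Sox9* passed on the *p* value alone but not on size. By adjusted *p* alone, 4 of 10 members passed in sg5 versus WT (with *Sox9* added), where 27% of all genes did, and 4 of 10 in sg6 versus WT (*Sox9* and *Vcan* added), where 30.7% did. The rRNA-depleted libraries gave 56.4, 57.1 and 61.5 CPM in WT, 108, 244 and 111 in sg5 and 96.9, 57.9 and 103 in sg6. All sg5 values lay above WT, 1 of them far above the other two, while the sg6 values reached down into the WT range. The log2 fold change was 1.40 (SE 0.29, adjusted *p* = 0.0150) for sg5 and 0.56 (SE 0.29, adjusted *p* = 0.469) for sg6, and the clones did not pass as different from each other (0.84, SE 0.29, adjusted *p* = 0.424). Without sg5 replicate 2, the highest library, the sg5 log2 fold change was 0.96 and the size no longer passed. Without WT replicate 2 or WT replicate 3 it was 1.40 and 1.43, with adjusted *p* = 0.0530 and 0.0672.

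*Sox6* (chr7:115470872-116038796, minus strand) and *Sox5* (chr6:143828425-144781977, minus strand) encode the paired coactivators of SOX9. *Sox6* had 97.2, 80.9 and 72.6 CPM in WT polyA libraries, 147.5, 75.1 and 92.5 in sg5 and 104, 63.7 and 81.1 in sg6. The 3 lines overlapped, and the log2 fold changes were 0.33 (SE 0.26, adjusted *p* = 0.379) and -0.0089 (SE 0.26, adjusted *p* = 0.983). After rRNA depletion the WT values were 58.3, 44.7 and 51.5 CPM, the sg5 values 120, 118 and 97.3 and the sg6 values 92.3, 41.9 and 55.6. The sg5 libraries stood clear of WT, at a log2 fold change of 1.12 (SE 0.24, adjusted *p* = 0.0169), whereas sg6 spanned the WT range (0.30, SE 0.24, adjusted *p* = 0.705). This call too was lost without WT replicate 2 (adjusted *p* = 0.0912) or WT replicate 3 (adjusted *p* = 0.0811).

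*Sox5* was the least abundant of the SOX members. Its level was 8.21, 8.36 and 10.0 CPM in WT polyA libraries, 12.8, 4.81 and 5.92 in sg5 and 5.98, 2.31 and 3.87 in sg6. The sg6 libraries all lay below WT and the sg5 libraries fell on either side of it. Neither difference passed, with log2 fold changes of -0.18 (SE 0.40, adjusted *p* = 0.783) and -1.13 (SE 0.41, adjusted *p* = 0.0674). The sg6 difference did pass in 6 of 21 alternatives. Among them were the fits without sg6 replicate 1 (-1.53, adjusted *p* = 0.0365) and without sg5 replicate 1 (-1.13, adjusted *p* = 0.0241). The latter library lies outside that contrast, but its removal changes the shared estimate of the spread. DESeq2 on all libraries called *Sox5* in sg6 too (-1.14, adjusted *p* = 0.0177). So did edgeR blocked by replicate number (-1.28, adjusted *p* = 0.00978) and edgeR limited to sg6 and WT (-1.15, adjusted *p* = 0.0384). In rRNA-depleted libraries *Sox5* was at 2.80, 2.62 and 4.54 CPM in WT, 12.7, 6.57 and 4.37 in sg5 and 4.14, 0.708 and 1.84 in sg6, and the log2 fold changes of 1.24 and -0.59 did not pass (adjusted *p* = 0.226 and 0.743). As a share of *Sox6* per kilobase, *Sox5* was 11.2% ± 2.81 (SD, n = 3) in WT, 7.40% ± 1.37 in sg5 and 4.86% ± 1.08 in sg6 in polyA data, and 6.70% ± 2.14, 7.09% ± 3.35 and 3.26% ± 1.45 in rRNA-depleted data. An antisense transcript, *Sox5os1*, shares 1330 bases of exon with *Sox5* (9.25% of its exons), and the strand setting of the counting is not given in the sources used here.

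*Acan*, the gene of the aggrecan core protein that fills mature cartilage (chr7:79053483-79115099, plus strand), was uneven between libraries in polyA data and close to the limit of detection after rRNA depletion. In polyA libraries it had 2.69, 2.06 and 1.02 CPM in WT, 5.69, 0.510 and 0.345 in sg5 and 6.85, 0.241 and 0.160 in sg6. Replicate 1 of each clone lay above WT and the other two libraries of each clone lay below it. The log2 fold changes of 0.19 and 0.35 had SEs of 1.36 and 1.38 (adjusted *p* = 0.937 and 0.873), so that no change could be resolved. These values rested on replicate 1: without sg5 replicate 1 the sg5 value was -2.15 (adjusted *p* = 0.309), and without sg6 replicate 1 the sg6 value was -3.24 (adjusted *p* = 0.136). Without replicate 1 of all 3 lines both clones passed, at -1.88 and -2.97 (adjusted *p* = 0.0147 and 0.00623). In rRNA-depleted libraries *Acan* had 5, 3 and 0 counts in WT, 7, 10 and 5 in sg5 and 10, 3 and 1 in sg6.

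*Vcan*, the related proteoglycan of loose and embryonic matrix (chr13:89655312-89742509, minus strand), was plentiful in every line. Its polyA level was 388, 486 and 603 CPM in WT, 615, 494 and 473 in sg5 and 851, 797 and 714 in sg6. The sg6 libraries lay above all WT libraries. Of the sg5 libraries, replicate 1 lay just above the highest WT library and the others within the WT range. The log2 fold changes were 0.68 (SE 0.16, adjusted *p* = 0.0135) in sg6 and 0.10 (SE 0.16, adjusted *p* = 0.703) in sg5. In rRNA-depleted libraries the values were 302, 225 and 294 CPM in WT, 561, 344 and 244 in sg5 and 559.6, 465 and 438 in sg6. All sg6 libraries were again above WT, but neither the log2 fold change of 0.83 (SE 0.24, adjusted *p* = 0.103) nor that of 0.49 in sg5 (SE 0.24, adjusted *p* = 0.335) passed. *Acan* per kilobase amounted to 0.830% ± 0.506 of *Vcan* in WT, 0.711% ± 0.936 in sg5 and 0.554% ± 0.871 in sg6 polyA libraries.

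*Hapln1* encodes link protein, which locks proteoglycans onto hyaluronan (chr13:89539796-89611652, plus strand). Its polyA level was 26.7, 28.8 and 18.4 CPM in WT, 7.96, 3.07 and 1.86 in sg5 and 25.5, 5.88 and 4.26 in sg6. All sg5 libraries lay below WT, whereas in sg6 replicate 1 sat within the WT range and the other two libraries lay below it. The log2 fold change was -2.52 (SE 0.72, adjusted *p* = 0.0301) in sg5 and -1.05 (SE 0.69, adjusted *p* = 0.289) in sg6. Single libraries decided both calls. Without WT replicate 2, sg5 replicate 2 or sg5 replicate 3 the sg5 value was -2.40, -2.32 and -2.17, with adjusted *p* = 0.0821, 0.1004 and 0.0887, without sg5 replicate 1 it was -3.32 and still passed, and without sg6 replicate 1 the sg6 value was -2.29 with adjusted *p* = 0.0233. With all libraries kept and the replicate number as a block, the sg6 value was -1.52 and passed (adjusted *p* = 0.0171).

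In rRNA-depleted libraries *Hapln1* was at 31.6, 25.04 and 28.4 CPM in WT, 2.58, 3.79 and 5.14 in sg5 and 19.4, 9.84 and 9.73 in sg6. The lines did not overlap, with WT highest, sg6 between and sg5 lowest. The sg5 level was 7.38-fold lower than WT (log2 fold change -2.88, SE 0.31, adjusted *p* = 0.0001), and this call held in all 22 alternatives that were run. The sg6 log2 fold change of -1.12 (SE 0.28) had an adjusted *p* of 0.0513 and did not pass. With the replicate number as a block it passed, at -1.15 (adjusted *p* = 0.0278), and *Hapln1* made 3 of 9 members called. It passed in 10 of 22 alternatives, among them those without sg5 replicate 1, sg5 replicate 3 or sg6 replicate 1 (adjusted *p* = 0.0192, 0.0419 and 0.00504). With all libraries kept, it also passed by DESeq2 (adjusted *p* = 0.0161) and when genes were fitted without transposable element loci (adjusted *p* = 0.0367). Compared directly, sg5 was 3.38-fold below sg6 (log2 fold change -1.76, SE 0.30, adjusted *p* = 0.0168), and without sg5 replicate 2 this did not pass (adjusted *p* = 0.0657). In that direct comparison 2 of 9 members were called (*Hapln1* and *Cytl1*), beside 1.48% of genes and 0.465% of features, and in polyA libraries 1 of 10 (*Cytl1*), beside 2.61% of genes. The link protein RNA per kilobase was 25.5% ± 1.85 of that of *Vcan* in WT, 2.998% ± 2.04 in sg5 and 6.38% ± 1.85 in sg6 after rRNA depletion, and 12.9% ± 4.89, 1.89% ± 1.15 and 3.54% ± 3.31 in polyA libraries (SD, n = 3).

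*Hapln1* and *Vcan* are next to each other among the tested protein-coding genes of chromosome 13, so their neighbours were read alongside them. *Cox7c* and *Edil3* on the *Hapln1* side and *Xrcc4* and *Tmem167* on the *Vcan* side were called in no comparison of either kind. In sg5 polyA libraries *Edil3*, which encodes a matrix protein that binds integrins, had a log2 fold change of 0.19 and *Vcan* of 0.10, beside -2.52 for *Hapln1*. After rRNA depletion these were 0.97, 0.49 and -2.88. The median over all 593 tested genes of the chromosome was -0.06 in sg5 and 0.24 in sg6 in polyA data, so the low *Hapln1* values were not shared by the chromosome as a whole. In sg6 polyA libraries *Vcan* had a log2 fold change of 0.68. There *Edil3*, *Xrcc4* and *Tmem167* were at 0.46, 0.19 and 0.39 (adjusted *p* = 0.149, 0.266 and 0.0249). The genes beside *Vcan* and the chromosome's median were thus also higher in sg6 than in WT.

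**Figure D3:**
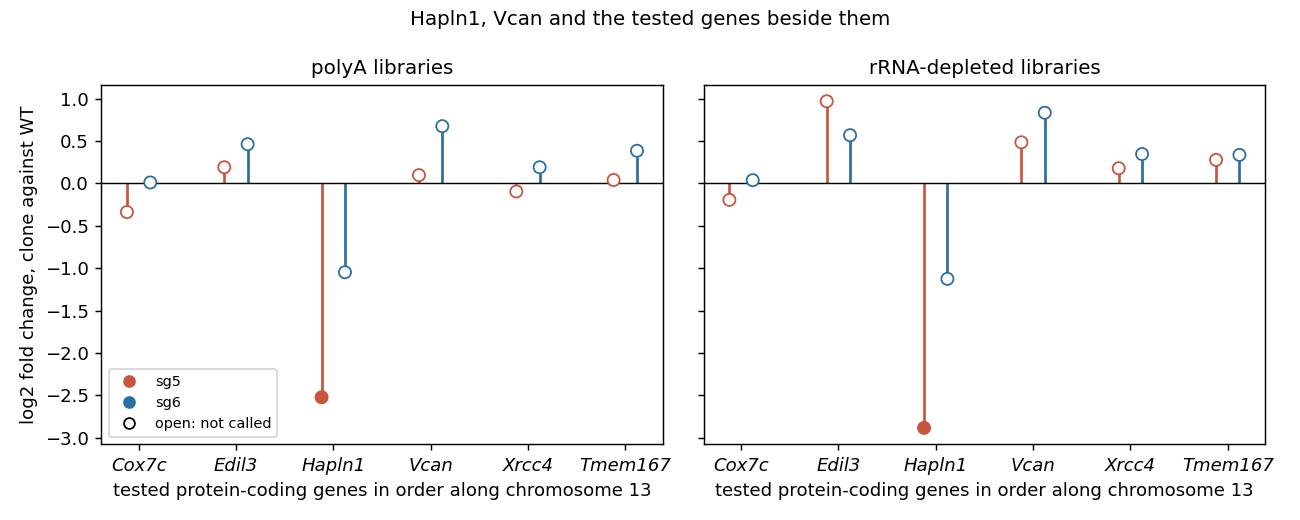
Log2 fold change against WT of *Hapln1*, *Vcan* and the 2 tested protein-coding genes on either side, in their order along chromosome 13, for sg5 and sg6 in polyA (left) and rRNA-depleted libraries (right). Filled points were called: *Hapln1* in sg5 is the only one in both panels, at -2.52 and -2.88.

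*Comp* (chr8:70373558-70382066, plus strand), a pentameric thrombospondin of cartilage and tendon, did not separate the lines. It was at 10.3, 11.6 and 18.5 CPM in WT polyA libraries, 12.7, 8.58 and 10.4 in sg5 and 11.4, 12.97 and 13.3 in sg6. Both clones overlapped WT, with log2 fold changes of -0.36 (SE 0.22, adjusted *p* = 0.272) and -0.11 (SE 0.22, adjusted *p* = 0.759). In rRNA-depleted libraries it had from 29 to 100 counts a library, and the log2 fold changes of 0.64 and 0.27 did not pass (adjusted *p* = 0.437 and 0.860).

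*Matn2* (chr15:34306677-34436273, plus strand), a matrilin of many connective tissues, had 54.7, 72.4 and 93.6 CPM in WT polyA libraries, 53.2, 47.5 and 54.0 in sg5 and 55.6, 74.4 and 72.5 in sg6. The sg5 libraries lay just below the lowest WT library and the sg6 libraries inside the WT range. Neither passed, at -0.51 (SE 0.18, adjusted *p* = 0.0664) and -0.12 (SE 0.18, adjusted *p* = 0.649). After rRNA depletion the levels were 76.7, 46.8 and 59.4 CPM in WT, 112, 30.6 and 25.4 in sg5 and 115, 61.0 and 59.3 in sg6. Replicate 1 of each clone was the highest library there and the groups overlapped (log2 fold changes -0.12 and 0.36, adjusted *p* = 0.936 and 0.835). Without sg5 replicate 1 the sg5 log2 fold change was -1.09, with adjusted *p* = 0.0459.

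*Matn4* (chr2:164389393-164405160, minus strand) encodes matrilin-4, a matrilin found in many connective tissues. In polyA libraries it had 8.31, 7.55 and 8.72 CPM in WT, 69.1, 41.6 and 51.1 in sg5 and 30.6, 33.1 and 34.4 in sg6. The lines did not overlap, and both clones stood above WT with sg5 the higher. The level was 6.59-fold higher than WT in sg5 (log2 fold change 2.72, SE 0.18, adjusted *p* = 1.26e-05) and 3.996-fold higher in sg6 (log2 fold change 2.00, SE 0.17, adjusted *p* = 5.43e-05), and both calls held in all 21 alternatives. Between the clones the log2 difference was 0.72 (SE 0.16, adjusted *p* = 0.0379). By adjusted *p* alone, 2 of 10 members passed in that direct comparison (*Matn4* and *Cytl1*), where 4.79% of genes did. *Matn4* per kilobase was 14.1% ± 3.79 of *Matn2* in WT polyA libraries, 126% ± 27.5 in sg5 and 59.3% ± 6.61 in sg6 (SD, n = 3). In rRNA-depleted libraries it was 1.02% ± 0.227, 18.8% ± 12.8 and 3.87% ± 1.08, so *Matn4* per kilobase exceeded *Matn2* only in the sg5 polyA libraries.

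The rRNA-depleted libraries held far fewer *Matn4* counts, 17, 8 and 20 in WT, 249, 152 and 68 in sg5 and 113, 43 and 37 in sg6. These correspond to 0.744, 0.295 and 0.557 CPM in WT, 9.58, 8.47 and 2.63 in sg5 and 4.87, 1.60 and 1.62 in sg6, with every KO library above WT. The log2 fold changes were 3.69 (SE 0.58, adjusted *p* = 0.00208) and 2.34 (SE 0.57, adjusted *p* = 0.0442). The sg6 call held in 13 of 21 alternatives, and it was lost without WT replicate 1, 2 or 3 or sg6 replicate 1, with adjusted *p* = 0.0837, 0.167, 0.185 and 0.174. The last of these gave a log2 fold change of 1.63. The first 250 bases before the annotated start of *Matn4* lie on the other strand within *Rbpjl*, which shares 149 bases of exon (2.88% of the *Matn4* exons). *Rbpjl* was at 0.307, 0.0737 and 0.111 CPM in WT, 1.39, 1.003 and 0.387 in sg5 and 0.646, 0.186 and 0.482 in sg6 in the rRNA-depleted libraries, and its part in the *Matn4* counts was not tested.

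**Figure D4:**
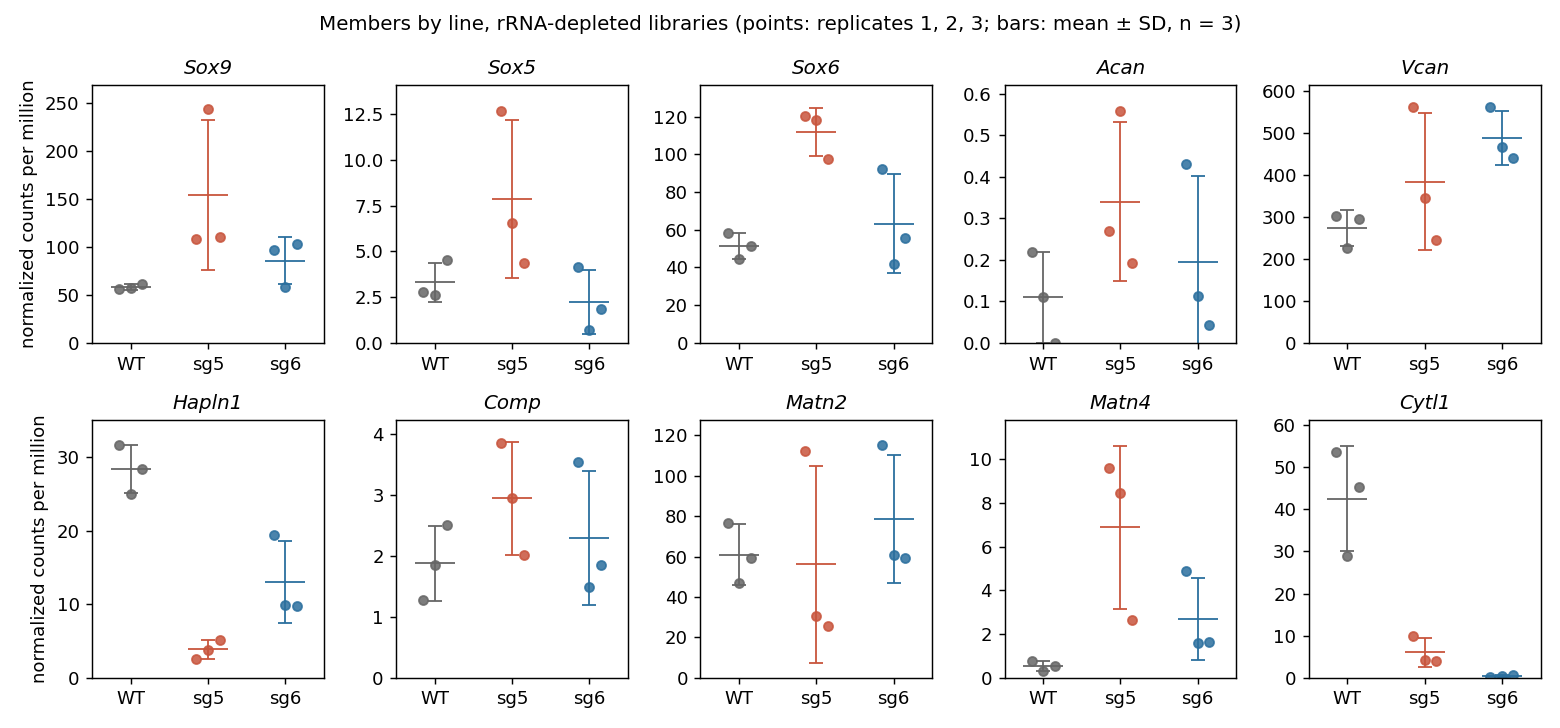
Normalized CPM of the 10 members in each rRNA-depleted library, drawn as for the polyA libraries. *Hapln1* falls in 3 separate levels from WT through sg6 to sg5, *Sox9* has 1 sg5 library at 244 CPM, and *Acan* stays below 1 CPM.

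*Cytl1* encodes a small secreted protein first described in hematopoietic precursors and later linked to chondrogenesis (chr5:37735519-37739820, plus strand). In polyA libraries it was at 55.2, 53.4 and 52.3 CPM in WT, 15.4, 8.58 and 8.62 in sg5 and 0.784, 0.273 and 0.266 in sg6. WT was tight, sg5 lay well below it and sg6 was lower still, with only 53, 17 and 15 counts. The level was 4.93-fold lower than WT in sg5 (log2 fold change -2.30, SE 0.31, adjusted *p* = 0.000832) and 119-fold lower in sg6 (log2 fold change -6.89, SE 0.42, adjusted *p* = 8.34e-06). The clones differed by 24.1-fold, with sg5 the higher (log2 difference 4.59, SE 0.39, adjusted *p* = 0.000184). Without sg6 replicate 1, the highest of that clone, these last values were -7.64 and 5.33 on the log2 scale.

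The same order was found after rRNA depletion, at 53.6, 28.9 and 45.2 CPM in WT, 9.93, 4.12 and 3.90 in sg5 and 0.215, 0.447 and 0.570 in sg6, the last from 5, 12 and 13 counts. Again no library of one line reached into the range of another. *Cytl1* was 7.07-fold lower than WT in sg5 (log2 fold change -2.82, SE 0.36, adjusted *p* = 0.000403) and 102-fold lower in sg6 (log2 fold change -6.68, SE 0.46, adjusted *p* = 2.53e-06), and sg5 was 14.5-fold above sg6 (log2 difference 3.85, adjusted *p* = 0.000895, or 3.26 without sg5 replicate 1). These calls held in all 21 alternatives in which *Cytl1* was tested.

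Sequences are shown for *Matn4* and *Cytl1*, the members called in both clones and both kinds of library, as the 250 bases before the start of transcription. They were read from RefSeq (GRCm38.p6), in which 7 of the 10 members had 13 promoter entries, and both are printed 5′ to 3′ on the strand of the gene, from chr2:164405161-164405410 (minus strand) and chr5:37735269-37735518 (plus strand). Cores bound by SOX proteins, ACAATG and ACAAAG, were searched on both strands and would appear in capitals.
Matn4: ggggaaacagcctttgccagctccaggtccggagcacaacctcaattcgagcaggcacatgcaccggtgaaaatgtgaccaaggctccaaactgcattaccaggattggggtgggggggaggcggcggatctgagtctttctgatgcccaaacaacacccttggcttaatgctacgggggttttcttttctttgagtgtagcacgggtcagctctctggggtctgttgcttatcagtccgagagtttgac
Cytl1: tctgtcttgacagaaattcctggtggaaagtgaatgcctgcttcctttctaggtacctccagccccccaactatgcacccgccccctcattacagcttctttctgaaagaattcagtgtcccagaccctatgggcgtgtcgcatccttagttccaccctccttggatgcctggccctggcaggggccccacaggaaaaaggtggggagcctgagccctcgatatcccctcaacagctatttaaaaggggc
Neither window holds either core. Among all 32851 promoter entries, 10.7% held ACAATG, 16.5% ACAAAG and 25.2% at least 1 of them, and 6 of the 13 entries of members did, all of them of *Sox5* and *Sox6*. The *Matn4* window holds 8 CpG dinucleotides and the *Cytl1* window 4, beside a median of 6 over all entries. A match or its absence describes only these letters in this window.

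The members were read beside 9 lists of related genes, 157 genes in all, of which 126 were tested in polyA and 109 in rRNA-depleted libraries. In polyA libraries 22 of 126 were called in sg5 (17.5%) and 28 of 126 in sg6 (22.2%), and after rRNA depletion 17 of 109 (15.6%) and 11 of 109 (10.1%). Over all genes these shares were 10.1% and 11.2% in polyA libraries and 7.35% and 5.75% after rRNA depletion. The lists too were chosen with earlier results of these data known, so their higher shares are not an independent sign of enrichment. The median log2 fold change of the lists was 0.10 in sg5 and 0.08 in sg6 in polyA libraries and 0.25 and 0.17 in rRNA-depleted ones, against the medians over all genes given above. Genes said below to have risen or fallen were called in the same direction in both clones.

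Of the paralogs of the members, 2 further SOX genes rose in polyA libraries from very low levels. *Sox8*, which belongs to the same subgroup as *Sox9*, had a WT level of 0.198 ± 0.0574 CPM against 0.722 ± 0.169 for sg5 and 0.557 ± 0.235 for sg6, and *Sox13*, of the subgroup of *Sox5* and *Sox6*, one of 0.290 ± 0.154 against 0.643 ± 0.0547 and 3.20 ± 0.294. *Sox10* had at most 2 counts in a polyA library. Among link proteins, *Hapln4*, known mainly from brain matrix, was at 16.0 ± 1.67 CPM in WT libraries, 27.7 ± 1.08 in those of sg5 and 27.6 ± 1.78 in those of sg6 (log2 fold changes 0.79 and 0.78, adjusted *p* = 0.000481 and 0.000452), which passed on the *p* value but not on size, while *Hapln2* and *Hapln3* stayed below 1 CPM in the means of all lines. The cartilage matrilins *Matn1* and *Matn3* were called in neither clone, at 0.342 ± 0.227 and 13.6 ± 3.68 CPM in WT, and the brain proteoglycan genes *Ncan* and *Bcan* were at 1.24 ± 0.255 and 0.176 ± 0.0558 CPM. *Thbs1*, a thrombospondin and thus a relative of *Comp*, rose as well in polyA libraries, with WT at 42.7 ± 11.9 CPM, sg5 at 321 ± 102 and sg6 at 449.9 ± 320.9. After rRNA depletion it was called in neither clone (adjusted *p* = 0.0505 and 0.212), and sg5 replicate 1, at 8.35 CPM, lay below every WT library.

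Genes for the assembly and turnover of the hyaluronan and chondroitin sulfate matrix moved in both directions. *Tnfaip6*, whose product modifies hyaluronan, fell in both clones and in both kinds of library, with polyA log2 fold changes of -1.45 and -1.52 and rRNA-depleted ones of -1.88 and -1.58. *Cemip*, which takes part in hyaluronan degradation, fell in polyA libraries (-1.70 and -1.94). *Xylt1*, the enzyme that starts chondroitin sulfate chains, fell in polyA libraries (-1.99 and -4.68), whereas *Chst11*, a chondroitin sulfotransferase, rose in both clones and both kinds (1.24 and 1.19, then 2.12 and 1.38). *Adamts9*, a protease that cleaves versican and aggrecan, fell in both clones and both kinds, with polyA levels of 10.1 ± 0.818 CPM for WT, 2.29 ± 0.273 for sg5 and 0.747 ± 0.0969 for sg6. *Mmp9* was low throughout, at 0.907 ± 0.771 CPM in WT and 0.0434 ± 0.0125 and 0.0420 ± 0.0494 in the clones.

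Among regulators, *Nkx3-2* and *Barx2*, both homeobox genes of early chondrogenic cells, were low in WT and at 0 counts in sg6. *Barx2* had 4, 21 and 9 counts in WT polyA libraries and 0, 0 and 4 in sg5, and it was too low to be tested after rRNA depletion. *Nkx3-2* had 5, 26 and 11 counts in WT polyA libraries, 23, 10 and 5 in sg5 and 0 in all 3 sg6 libraries, and 9, 17 and 14 counts in WT rRNA-depleted libraries against 0 in all 6 KO libraries. *Runx3*, a transcription factor of maturing cartilage, rose from 16.6 ± 4.24 CPM to 45.3 ± 8.46 and 48.3 ± 6.42 in polyA libraries, *Foxc2* from 10.4 ± 2.51 to 29.1 ± 1.35 and 26.8 ± 1.33, and *Msx2* fell from 0.768 ± 0.0315 to 0.319 ± 0.0163 and 0.249 ± 0.0814. After rRNA depletion *Runx3* was called in neither clone (adjusted *p* = 0.0860 and 0.355), and *Foxc2* was called in sg5 but not in sg6 (adjusted *p* = 0.102). Of the signalling genes, *Nog*, an inhibitor of bone morphogenetic proteins, fell in both clones and both kinds, with polyA log2 fold changes of -3.59 and -3.62. *Pth1r*, the receptor for parathyroid hormone and its related peptide, rose in both clones and both kinds (2.46 and 2.55 in polyA libraries).

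The secreted cartilage proteins *Frzb*, *Ccn2*, *Prg4* and *Cpe* rose in both clones in polyA libraries. After rRNA depletion *Ccn2* was called in neither clone (adjusted *p* = 0.120 and 0.187), and *Frzb* was called in sg5 but not in sg6 (adjusted *p* = 0.0724). *Frzb*, a Wnt antagonist of articular cartilage, had polyA levels of 3.09 ± 1.66 CPM for WT, 48.0 ± 29.9 for sg5 and 20.8 ± 11.9 for sg6, and *Cpe*, which encodes carboxypeptidase E, rose in both kinds of library (1.08 and 1.04 on the log2 scale in polyA libraries, 1.60 and 1.18 after rRNA depletion). *Prg4*, the gene of lubricin, rose 2.10 and 2.52 on the log2 scale in polyA libraries but not after rRNA depletion, where its log2 fold changes were 0.12 and -0.27. None of the 7 cartilage collagens was called in the same direction in both clones.

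**Figure D5:**
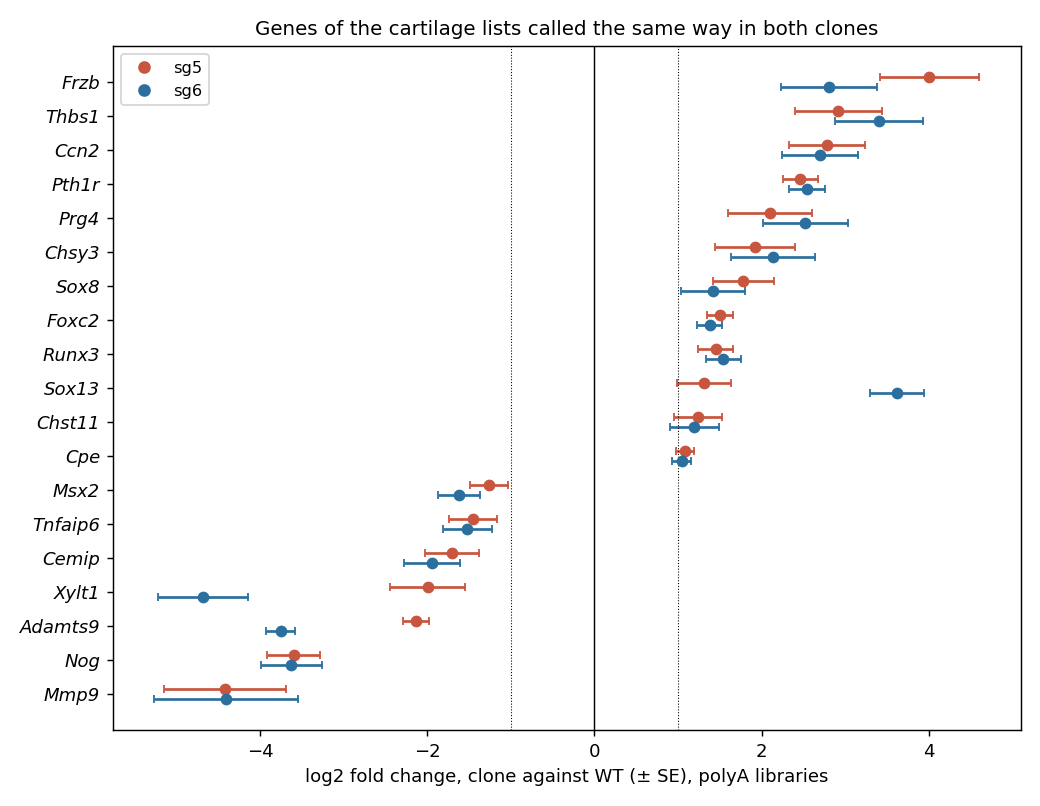
Log2 fold change against WT with its SE in polyA libraries for 19 genes of the lists that were called the same way in both clones in at least 1 kind of library and had counts in every line. The rising genes run from *Frzb* at the top to *Cpe*, and the falling genes from *Msx2* to *Mmp9*.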

How the data were processed

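RNA of 3 lines was measured in 9 polyA-selected and 9 rRNA-depleted libraries. The polyA table holds expected counts per gene, which the authors estimated with Salmon (0.8.2 in the submitters' processing notes) and summarized per gene on mm10, and which were deposited as whole numbers. The rRNA-depleted table holds deposited counts of genes and transposable element loci, which the authors obtained with STAR (2.27.10a) and TElocal, allowing reads with several alignments. Whether strand was used in counting is not given in the sources used here.

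Here, each table was analysed apart. Members were found by Entrez ID, with symbols from RefSeq (24045 of 24100 IDs matched). Low features were removed (filterByExpr, minimum count 10), libraries were scaled by TMM, and all 9 libraries of a kind entered 1 fit of edgeR 4.0.16 (quasi-likelihood test) with 3 groups and Benjamini-Hochberg adjustment over 15480 genes or 56086 features. CPM uses the TMM-scaled totals. Exon lengths and positions are from GENCODE vM21 (GRCm38). The members and gene lists were chosen with earlier results of these data known. Genes of the lists were named when called in the same direction in both clones in at least 1 kind of library, at most 6 a list. The scripts were tested on simulated data. In their deviations from the line means, same-numbered libraries correlated positively in all 3 pairs for sg6 with WT after rRNA depletion (0.364, 0.544 and 0.114) and for sg5 with sg6 in both kinds (0.277 to 0.373 and 0.174 to 0.638). In these comparisons the number may stand for a pair. The test results printed are nonetheless from the fit without that block, except where an alternative is named. With the block, sg5 versus sg6 kept its calls, *Cytl1* in polyA and *Hapln1* and *Cytl1* in rRNA-depleted libraries. In the other comparisons at least 1 pair fell to 0.098 or below, and the number was not read as a pair. The cutoff, a correlation of at least 0.1 in every pair, was set here. For sg6 with WT in polyA libraries the pairs were at 0.381, 0.0983 and 0.430, all positive, and 1 of them fell just short. With the block, *Sox5* and *Hapln1* were also called in that comparison, so its count of called members depends on this cutoff. The sources used here do not say what a number stands for. Alternatives were DESeq2 1.42.0, the replicate number as a block, other scaling, filters and thresholds, thinning, and leaving out libraries. No replicate pair held identical values, and 0 columns were left unused.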

Additional observations from a re-analysis of the deposited data

Results flagged for a closer look

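Values are given here where the 2 KO clones differed from each other in a direct comparison of sg5 with sg6 with an adjusted *p* below 0.05. In polyA libraries *Cytl1* was higher in sg5 than in sg6 by 4.59 on the log2 scale (SE 0.39, adjusted *p* = 0.000184), with all 3 sg5 libraries above all 3 sg6 libraries. In rRNA-depleted libraries the *Cytl1* difference was 3.85 (SE 0.45, adjusted *p* = 0.000895), and it too held for 3 of 3 libraries. *Matn4* was higher in sg5 by 0.72 in polyA libraries (SE 0.16, adjusted *p* = 0.0379), with the lines apart. The rRNA-depleted *Matn4* difference of 1.35 (SE 0.50) did not pass (adjusted *p* = 0.480). *Hapln1* in rRNA-depleted libraries differed by -1.76 (SE 0.30, adjusted *p* = 0.0168), with all sg5 libraries lower than all sg6 libraries, and without sg5 replicate 2 it was -1.74 with adjusted *p* = 0.0657. Each clone is a single line, so the guide and the clone cannot be told apart.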

How the results depend on the processing

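*Cytl1* was called in both clones, both kinds of library and the comparison between clones in every alternative in which it was tested, and *Matn4* in both clones in polyA libraries and in sg5 in rRNA-depleted libraries likewise. The number of members called for sg6 versus WT in polyA libraries was 2 and became 4 with the replicate number as a block (*Sox5* added at -1.28, adjusted *p* = 0.00978, and *Hapln1* at -1.52, adjusted *p* = 0.0171), and ranged from 2 to 5 when libraries were left out, the highest without replicate 1 of all lines. For rRNA-depleted libraries the replicate block gave 5, 3 and 2 members for sg5 versus WT, sg6 versus WT and sg5 versus sg6, against 5, 2 and 2 without it. Same-numbered libraries correlated by 0.0257 to 0.430 (polyA) and -0.229 to 0.638 (rRNA-depleted) across genes in their deviations from the line means, and 6 of 9 and 5 of 9 libraries correlated best with their own number. A minimum of 10 counts in every rRNA-depleted library, which removes *Matn4* and *Cytl1* from the test, left 3, 0 and 1 members called, testing against a log2 fold change of 1 left 3, 1 and 1, and fitting only sg5 and sg6 left 1. DESeq2 called 3 members for sg6 versus WT in each kind. Leaving out libraries gave 3 to 6, 1 to 3 and 1 to 4 members in the 3 rRNA-depleted comparisons, the last being 4 without sg6 replicate 1 (*Sox5* and *Sox6* added).

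The uncalled *Acan* values changed sign with the replicate block, to -1.06 (sg5), -1.19 (sg6) and 0.13 (sg5 versus sg6) in polyA libraries, and centring on the chromosome's median turned *Sox6* in sg6 to 0.030 and *Sox9* in sg5 versus sg6 to 0.022. Leaving out libraries, the polyA log2 fold changes that changed sign ranged from -0.78 to 0.083 (*Sox5*), -2.15 to 0.72 (*Acan*) and -0.17 to 0.33 (*Vcan*) in sg5, from -0.22 to 0.15 (*Sox6*), -3.24 to 0.94 (*Acan*), -0.26 to 0.19 (*Comp*) and -0.29 to 0.085 (*Matn2*) in sg6, and from -0.21 to 0.030 (*Sox9*) and -2.50 to 3.43 (*Acan*) between the clones. In rRNA-depleted libraries they ranged from -1.09 to 0.26 (*Matn2*, sg5), -0.058 to 0.54 (*Sox6*, sg6) and -0.38 to 0.69 (*Comp*, sg6). The cause was not tested. Over all genes tested in polyA libraries, the test against a log2 fold change of 1 called 694, 820 and 141 genes in the 3 comparisons and the minimum of 10 counts 986, 1102 and 265, against 1571, 1730 and 404. In rRNA-depleted libraries these were 700, 641 and 85 features and 754, 468 and 127, against 1714, 1375 and 261, with 423 by DESeq2 and 145 from the 2 clones alone for the last. After rRNA depletion, precision is limited by depth for *Acan* (0 to 10 counts a library), *Matn4* in WT (8 to 20) and *Cytl1* in sg6 (5 to 13).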
